A study of Mus musculus with 6 samples.

Results

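Oxidative phosphorylation is carried out by 5 protein complexes in the inner mitochondrial membrane. Complexes I to IV pass electrons from NADH and succinate to oxygen, and complexes I, III and IV pump protons. Complex V, the ATP synthase, uses the proton gradient to make ATP. Most subunits are encoded in the nucleus, whereas the mitochondrial genome encodes core subunits of complexes I, III, IV and V, both mitochondrial rRNAs and a set of tRNAs. The mitochondrial genes are transcribed as long precursors from which the tRNAs are cut out, and their mRNAs carry short poly(A) tails. Complex II has no mitochondrial-encoded subunit. The genes described here were chosen by name: all genes whose symbol starts with mt-, and the *Nduf*, *Sdh*, *Uqcr*, *Cox* and *Atp5* subunit symbols of the nucleus. They were 127 of the 55809 genes in the deposited counts, 37 encoded in the mitochondrial genome and 90 in the nucleus, and the 2 groups were treated apart.

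RNA came from HC11 cells, an established line of mouse mammary epithelial cells, grown in medium that contained BMP7 (3 libraries) or lacked it (Ctrl, 3 libraries). BMP7 is a secreted ligand of the bone morphogenetic protein family, and the study asked how HC11 cells respond to it. The study's methods describe starved HC11 cells that were then given BMP7 for a short or a longer time, and do not name which of these was sequenced. Both groups are 1 cell line, and nothing in the labels says that libraries of a group were separate cultures, so p-values measure only the spread between these samples.

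Poly(A) RNA was sequenced and fragments were counted on the exons of each gene. The BMP7 libraries are numbered 1, 3 and 4 and the Ctrl libraries 1, 2 and 3, as their columns are. Totals were 19858701 to 20327200 fragments per library in Ctrl and 14607938 to 23748970 with BMP7, with the fewest in BMP7 replicate 1. Levels are given as CPM, the usual count unit scaled to library size, here after TMM normalization, which balances the libraries' composition. A gene was called higher or lower at an adjusted p under 0.05 (edgeR quasi-likelihood test, Benjamini-Hochberg over all 15733 genes tested) and a fold change over 1.2. Among the epithelial markers, *Krt5* was at 2599.7, 2684.9 and 2645.8 CPM in Ctrl, *Krt18* was at 51.1, 48.5 and 48.9 CPM, and the milk protein gene *Csn2* had at most 1 count in any library.

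Of the 127 members, 100 had enough counts to be tested. These were 22 mitochondrial genes, namely all 13 mRNAs, both rRNAs and 7 tRNAs, and 78 nuclear genes. The nuclear genes were 75 subunits (36 of complex I, 4 of complex II, 8 of complex III, 10 of complex IV and 17 of complex V), the pseudogenes *Atp5pb-ps* and *Atp5l2-ps*, and *Cox6c2*, a copy of *Cox6c*. The other 27 were 15 mitochondrial tRNAs, 6 tissue-restricted *Cox* isoforms and 6 pseudogenes, and 6 of them had no count in any library.

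Levels are compared between genes per kilobase of the deposited gene length. On that scale the mitochondrial mRNAs spanned 72.0 CPM per kb for *mt-Nd3* to 15589 CPM per kb for *mt-Co1*, the catalytic core subunit of cytochrome c oxidase. Next below *mt-Co1* came *mt-Nd1* at 8818 CPM per kb, *mt-Cytb* at 8690 CPM per kb and *mt-Nd2* at 5413 CPM per kb. The nuclear subunits lay between 0.916 CPM per kb for *Atp5g1* and 447 CPM per kb for *Cox8a*, so the ranges overlapped. *mt-Nd3*, *mt-Nd4l* (333 CPM per kb) and *mt-Atp8* (357 CPM per kb) were below *Cox8a*. Of these, *mt-Nd3* and *mt-Nd4l* had fewer counts than their annotated near-identical copies. Within complex I the highest nuclear gene was *Ndufb11* (142 CPM per kb) and the lowest *Ndufb2* (1.13). In complex II *Sdhd*, a membrane anchor, was highest (78.6) and *Sdhb*, the iron-sulfur subunit, lowest (39.0). In complex III *Uqcr10* was highest (136) and *Uqcrq* lowest (48.4). In complex IV *Cox8a* stood highest and *Cox7c* lowest (5.23), and in complex V *Atp5a1* highest (277), close to its partner in the catalytic head *Atp5b* (270), with *Atp5g1* lowest. On this scale complexes I and V thus had the widest spread among their own subunits and complex II the narrowest. The scale rests on the deposited length, which for some subunits far exceeds the longest protein-coding transcript of GENCODE vM21. The lengths were 6443 against 544 bases for *Atp5l* and 4522 against 623 for *Ndufb7*, but 4912 against 4715 for *Atp5g1*. Of the 8 nuclear subunits lowest on this scale, 4 (*Atp5g1*, *Atp5l*, *Ndufb4* and *Atp5md*) had fewer counts than their annotated near-identical copies. *Cox7c*, also among these 8, had 99 to 127 counts in a library, and a gene that matches part of its transcript had up to 2321.

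**Figure D1:**
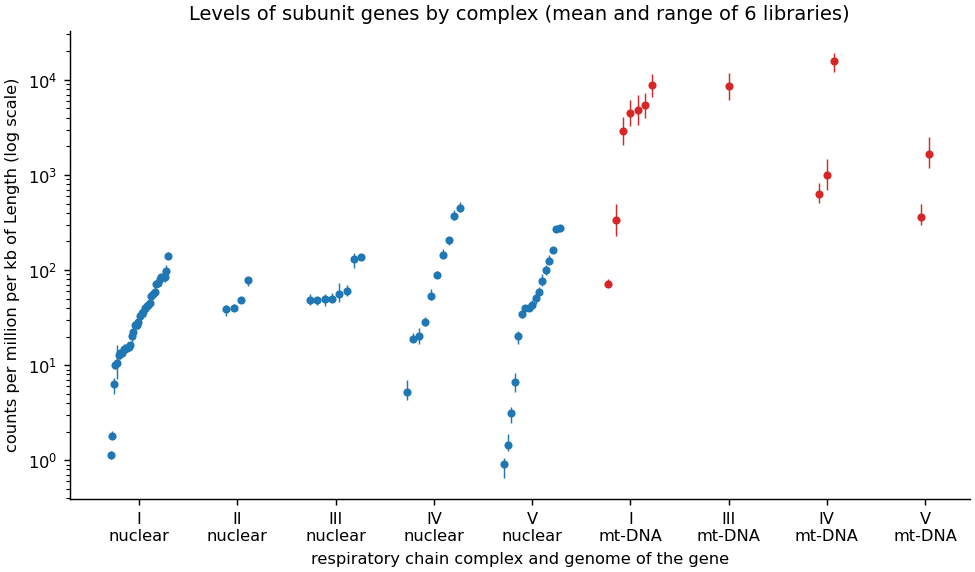
Level of each tested subunit gene (points, mean over 6 libraries, with a bar from the lowest to the highest library) in CPM per kb of gene length on a log axis, grouped by complex and by the genome that encodes it. Mitochondrial mRNAs reach 15589 CPM per kb and nuclear subunits 447 CPM per kb, and the lowest subunits of complexes I and V lie near 1.

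The tissue-restricted isoforms of complex IV were at or near 0 counts, in contrast to their ubiquitous partners. The heart and muscle isoform *Cox6a2* had 4, 2 and 6 counts in Ctrl replicates 1 to 3 and 6, 13 and 4 counts in BMP7 replicates 1, 3 and 4, while *Cox6a1* was at 237 to 300 CPM. *Cox7a1*, also a muscle isoform, had 1 to 3 counts in every library against 45.6 to 60.01 CPM for *Cox7a2*. The testis isoforms *Cox6b2* and *Cox7b2* had at most 4 and 7 counts, and their partners *Cox6b1* and *Cox7b* were at 131 to 159 CPM and 103 to 118 CPM. *Cox8b*, another heart and muscle isoform, and *Cox8c* had at most 2 and 3 counts against 253 to 318 CPM for *Cox8a*. No library of either group had an isoform of this kind above 13 counts, and a difference between the groups was not tested. *Cox4i2*, a complex IV isoform outside the naming rule, was also not tested and had at most 9 counts. It was at 0.0482, 0 and 0 CPM in Ctrl and 0.627, 0.267 and 0.331 CPM in BMP7 replicates 1, 3 and 4.

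The nuclear-encoded members did not pass the test in either direction. With edgeR 0 of 78 were higher and 0 were lower with BMP7, against 5.99% and 5.38% of all genes tested, and DESeq2 also called 0 and 0. At an unadjusted p under 0.05, 2 were higher (*Atp5pb-ps* and *Ndufb10*) and 1 was lower (*Cox6c2*), 3 of 78 against 26.2% of all genes tested. Their median log2 fold change was -0.0019, beside -0.0062 over all genes tested, and 39 of 78 had a positive value. Among the 75 subunits, log2 fold changes lay between -0.23 (*Atp5g1*) and 0.24 (*Cox7c*). The median was 0.0030 for complex I, -0.085 for complex II, 0.035 for complex III, 0.032 for complex IV and -0.030 for complex V. In bulk RNA, fewer cells of a kind and less RNA per cell cannot be told apart.

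For 47 of the 78 nuclear members the 95% interval of the fold change lay within 1.2-fold in either direction (28.3% of all genes tested), and for 74 it lay within 1.5-fold (66.4% of all genes). The 4 members with wider intervals were *Atp5g1*, *Cox7c*, *Cox6c2* and *Atp5l2-ps*, all below 10 CPM in every library. *Atp5b*, the catalytic subunit of the ATP synthase, was at 1156, 1123 and 1109 CPM in Ctrl and 1188, 1101 and 1189 CPM with BMP7, a log2 fold change of 0.04 (95% interval -0.093 to 0.17). The groups overlapped, with BMP7 replicate 3 below all Ctrl libraries and the other BMP7 libraries above them.

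**Figure D2:**
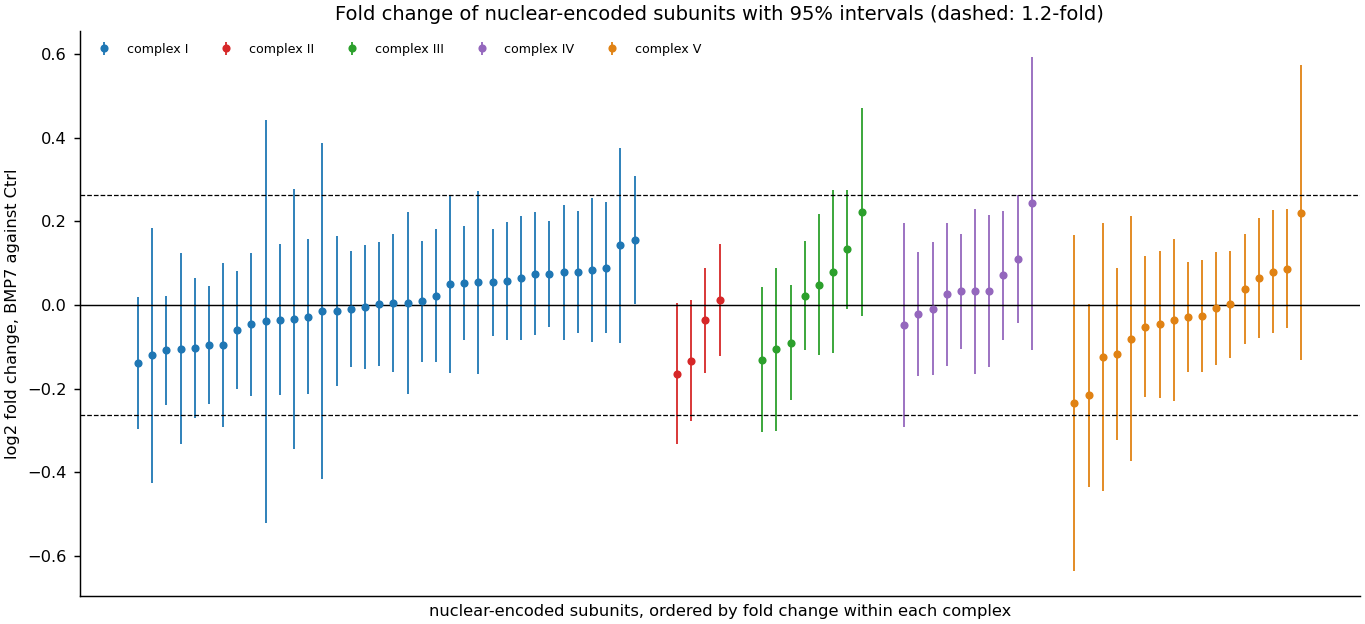
Log2 fold change of BMP7 against Ctrl for the 75 nuclear subunits tested (points) with 95% intervals (bars), ordered by value within each complex, with dashed lines at a 1.2-fold change. The interval of Ndufb10 in complex I lies above 0 and those of the other subunits span 0.

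Complex I takes electrons from NADH, and its 7 nuclear core subunits carry the flavin and iron-sulfur clusters. *Ndufs8*, one of these, was at 59.3, 62.7 and 60.2 CPM in Ctrl and 58.6, 53.6 and 58.5 CPM with BMP7 (log2 fold change -0.096, adjusted p = 0.395 with edgeR). Every BMP7 library was below every Ctrl library, which held for 4 of 78 nuclear members against 15.1% of all genes tested. Among the 29 supernumerary subunits, which surround the core, *Ndufa10* had all BMP7 libraries above Ctrl (109.7 to 119 CPM against 107 to 108 CPM). *Ndufb10* had 90.5, 100.2 and 104 CPM in Ctrl and 116, 113 and 99.8 CPM with BMP7, with BMP7 replicate 4 inside the Ctrl range (log2 fold change 0.15, adjusted p = 0.184 with edgeR).

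Complex II, which is also the succinate dehydrogenase of the TCA cycle, had 3 of 4 subunits with negative log2 fold changes. *Sdhb* was at 91.7, 95.1 and 89.7 CPM in Ctrl and 94.2, 73.3 and 79.9 CPM with BMP7 (log2 fold change -0.16, SE 0.079, adjusted p = 0.203 with edgeR). BMP7 replicate 1 lay within the Ctrl range and BMP7 replicates 3 and 4 below it. *Sdhd* was at 102, 102 and 100.2 CPM in Ctrl and 99.5, 83.6 and 94.1 CPM with BMP7, so that the groups did not overlap (log2 fold change -0.13, adjusted p = 0.229 with edgeR). The flavoprotein gene *Sdha* and the anchor gene *Sdhc* were at -0.04 and 0.01.

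Complex III moves electrons from ubiquinol to cytochrome c. *Uqcrb* spread most among its 8 nuclear genes, at 40.6, 46.4 and 48.1 CPM in Ctrl and 63.6, 53.7 and 41.0 CPM with BMP7, with BMP7 replicates 1 and 3 above Ctrl and BMP7 replicate 4 inside its range (log2 fold change 0.22, SE 0.12, adjusted p = 0.246 with edgeR). *Uqcrc1*, a core protein of the complex, had all BMP7 libraries above Ctrl, at 239, 207 and 204 CPM against 193, 199 and 200.3 CPM (log2 fold change 0.13, adjusted p = 0.221 with edgeR). With *Ndufa10* and *Atp5pb-ps* it was 1 of 3 nuclear members with this pattern, against 14.8% of all genes tested. The Rieske protein gene *Uqcrfs1* was at -0.13.

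In complex IV, to which *Ndufa4* was assigned, log2 fold changes of the 10 nuclear genes lay between -0.05 (*Cox5b*) and 0.24 (*Cox7c*), and *Cox7c* rested on 4.87 to 7.81 CPM. In complex V the members of the catalytic head and central stalk spanned -0.22 (*Atp5e*) to 0.08 (*Atp5d*). *Atp5e* was at 37.7, 39.3 and 36.2 CPM in Ctrl and 39.8, 29.3 and 29.0 CPM with BMP7, with BMP7 replicate 1 above Ctrl and the other BMP7 libraries below it (adjusted p = 0.195 with edgeR). The c ring is encoded by 3 genes for the same mature protein. *Atp5g3*, at 195 to 247 CPM, held most of the counts under these genes themselves, beside *Atp5g1* (3.19 to 5.23 CPM) and *Atp5g2* (4.14 to 6.13 CPM). With the counts of its near-identical copy added, *Atp5g1* was at 76.4 to 91.8 CPM. The 5 genes of the membrane part all had negative log2 fold changes, between -0.12 and -0.0081, none of them called. With the counts of copies added, *Atp5md* was at 0.07 and *Atp5l* at -0.05.

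The 1 nuclear member past the adjusted p threshold alone (13.7% of all genes tested) was a pseudogene. *Atp5pb-ps* on chr11, whose transcript matches that of the peripheral stalk gene *Atp5pb* along its whole length at 95% identity or more, was at 80.2, 79.3 and 82.9 CPM in Ctrl and 93.3, 99.2 and 90.2 CPM with BMP7. The groups did not overlap, and the log2 fold change was 0.22 (SE 0.062, adjusted p = 0.0249 with edgeR), under the 1.2-fold limit of a call. *Atp5pb* itself was at 161, 174 and 171 CPM in Ctrl and 197, 173 and 169 CPM with BMP7 (log2 fold change 0.09, adjusted p = 0.457 with edgeR), and its groups overlapped. Whether fragments of 1 were counted under the other cannot be told apart in these counts.

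Although the groups did not separate, the BMP7 libraries differed among themselves in the nuclear members. The summed level of the nuclear members was 8306, 8304 and 8233 CPM in Ctrl, within 1% of each other, and 9023, 7910 and 8127 CPM with BMP7. BMP7 replicate 1 thus lay above all Ctrl libraries and BMP7 replicates 3 and 4 below them, and the difference of the means (72.5 CPM) was under the pooled SD of 418 CPM. The median log2 deviation of the 78 nuclear members from their mean over all libraries was 0.12 in BMP7 replicate 1. It was -0.056 and -0.044 in BMP7 replicates 3 and 4, and Ctrl libraries ranged from -0.014 to 0.012. In BMP7 replicate 1 it was 0.11 for complex I, 0.078 for complex II, 0.21 for complex III, 0.20 for complex IV and 0.12 for complex V, the highest of all 6 libraries in each complex with TMM scaling. With offsets for gene length, Ctrl replicate 1 was highest in complex II.

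Gene length moved with this deviation. Nuclear members are short, with a median length of 1631 bases against 3751 bases over all genes tested. In BMP7 replicate 1 the log2 deviation of genes fell by 0.0341 per doubling of length, whereas in the other libraries it rose by 0.0024 to 0.012. The shortest 20% of genes (up to 1651 bases) had a median deviation of 0.085 in BMP7 replicate 1 and between -0.014 and 0.014 elsewhere. With an offset for length fitted in each library, that of the nuclear members in BMP7 replicate 1 was 0.093, in BMP7 replicate 3 -0.058 and in BMP7 replicate 4 -0.029. The median log2 fold change of the nuclear members became -0.012, and 0 were called in either direction.

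Sums of adipocyte and macrophage markers also split the BMP7 libraries, whereas that of 11 epithelial markers was above Ctrl in every BMP7 library. The epithelial sum was 8301 to 8430 CPM in Ctrl and 10306, 8880 and 9195 CPM in BMP7 replicates 1, 3 and 4. The summed level of 14 adipocyte genes was 17.2 to 27.2 CPM in Ctrl, 28.8 CPM in BMP7 replicate 1, and 94.6 and 83.0 CPM in BMP7 replicates 3 and 4, with the adipocyte regulator *Pparg* at no more than 3 counts in any library. That of 11 macrophage genes was 49.6 to 53.7 CPM in Ctrl, 51.4 CPM in BMP7 replicate 1, and 30.3 and 29.4 CPM in BMP7 replicates 3 and 4. Most of that drop was the lysozyme gene *Lyz2*, at 25.5 to 26.6 CPM in Ctrl, 22.5 CPM in BMP7 replicate 1, and 6.76 and 6.94 CPM in BMP7 replicates 3 and 4, whereas *Cd68* had all BMP7 libraries (12.4 to 15.6 CPM) above Ctrl (10.9 to 11.6 CPM). Muscle markers (10 genes) were at 7.29 to 9.44 CPM in Ctrl and 9.69 to 12.7 CPM with BMP7, and fibroblast markers (7 genes) at 234 to 268 CPM and 221 to 234 CPM. The fibroblast sum was mostly *Vim* and *Col1a1*, of which *Col1a1* fell (log2 fold change -0.41), while *Col1a2*, *Dcn* and *Col3a1* rose (log2 fold changes 1.65, 1.67 and 0.65). *Dcn* was at 0.737 to 1.73 CPM in Ctrl, 1.74 CPM in BMP7 replicate 1, and 4.44 and 4.90 CPM in BMP7 replicates 3 and 4. The libraries are of 1 cell line, and whether cells of these types were present was not tested. Nor was a link between these markers and the levels of the nuclear members tested. The median log2 fold change of BMP7 replicate 1 against Ctrl, without BMP7 replicates 3 and 4, was 0.13 over the nuclear members, with 3 called higher (*Uqcrc1*, *Uqcrb* and *Ndufa12*) where 4.41% of all genes were. Without BMP7 replicate 1, 3 were called lower (*Atp5e*, *Sdhb* and *Ndufa12*), where 5.58% of all genes were. Both counts are below the share of all genes.

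**Figure D3:**
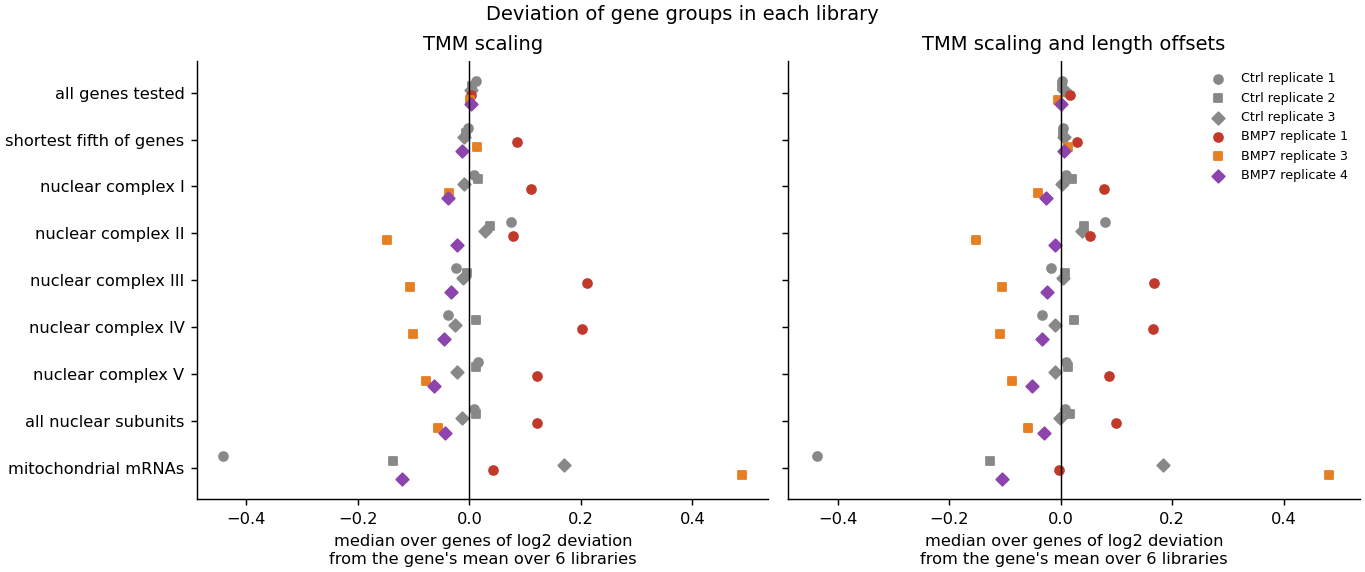
Median log2 deviation of gene groups from each gene's mean over the 6 libraries, 1 point per library (grey, Ctrl; colors, BMP7), with TMM scaling (left) and with length offsets added (right). On the left BMP7 replicate 1 lies highest in all nuclear complexes and BMP7 replicates 3 and 4 below 0, and the mitochondrial mRNAs spread from -0.44 in Ctrl replicate 1 to 0.49 in BMP7 replicate 3.

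*Ndufa12*, an accessory subunit of complex I, illustrated the split. It was at 13.8, 18.2 and 17.2 CPM in Ctrl, 25.9 CPM in BMP7 replicate 1, and 11.2 and 11.95 CPM in BMP7 replicates 3 and 4. BMP7 libraries thus lay on both sides of Ctrl, and the log2 fold change over all libraries was -0.04 (95% interval -0.52 to 0.44).

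The mitochondrial genes took a larger share of all counts, and this share varied within both groups. It was 5.15%, 6.17% and 7.41% in Ctrl replicates 1, 2 and 3 and 6.51%, 8.26% and 6.14% in BMP7 replicates 1, 3 and 4. The lowest value was in Ctrl and the highest with BMP7, with the other 4 libraries interleaved. The means were 6.24% ± 1.13 (SD, n = 3) and 6.97% ± 1.13 (SD, n = 3), so the difference of 0.727 percentage points was under the pooled SD. Nearly all of it came from mRNAs, with rRNAs between 0.103% and 0.118% of counts after poly(A) selection.

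All 13 mitochondrial mRNAs had a positive log2 fold change, and none passed the test. With edgeR 0 of 13 were called, against 5.99% higher and 5.38% lower of all genes tested, and DESeq2 called 0. At an unadjusted p under 0.05 (edgeR), 4 of 13 were higher (*mt-Co2*, *mt-Co3*, *mt-Atp6* and *mt-Nd6*), where 2067 of all 15733 genes tested were. The log2 fold changes lay between 0.08 (*mt-Nd3*) and 0.40 (*mt-Atp6*), with a median of 0.26, and with length offsets the median was 0.24. Group ranges overlapped for every one of the 13, whereas 14.8% of all genes tested had all BMP7 libraries above Ctrl and 15.1% below. The mRNAs share their precursors, so they are not independent of each other.

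The order of the libraries recurred from gene to gene. BMP7 replicate 3 was the highest library for 12 of the 13 mRNAs and Ctrl replicate 1 the lowest for 12. *mt-Co1* was at 18503, 22108 and 26779 CPM in Ctrl and 23540, 29896 and 23684 CPM with BMP7 (log2 fold change 0.19, SE 0.12, adjusted p = 0.316 with edgeR). *mt-Cytb*, the cytochrome b of complex III, was at 7079, 8977 and 11105 CPM in Ctrl and 10029, 13495 and 8962 CPM with BMP7 (log2 fold change 0.26, adjusted p = 0.280 with edgeR). In both genes Ctrl replicate 3 was above BMP7 replicates 1 and 4.

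**Figure D4:**
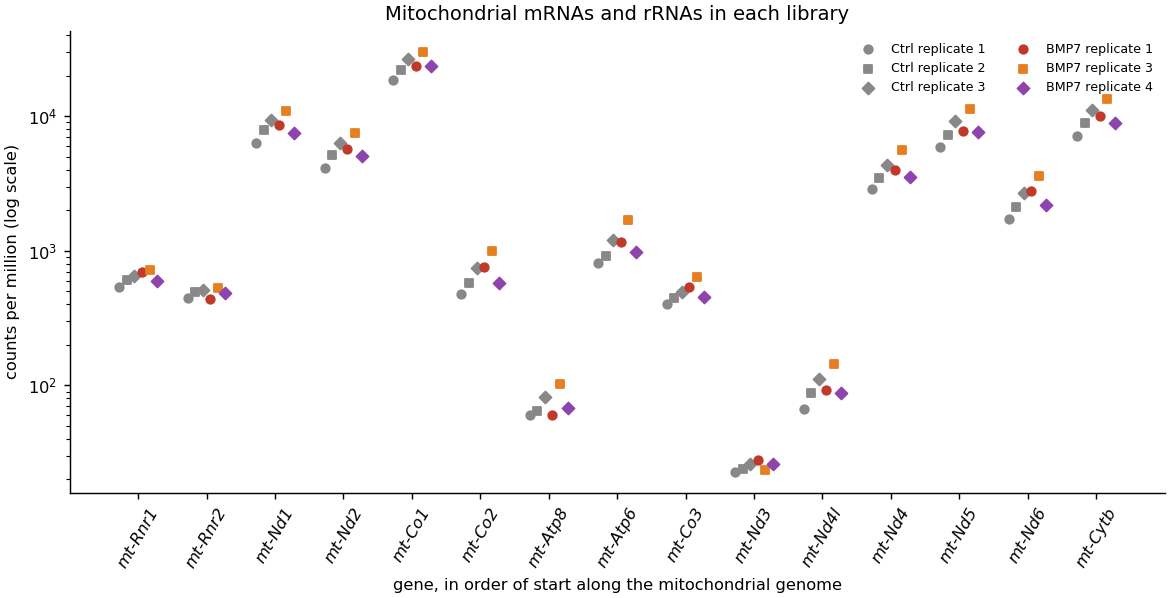
CPM (log axis) of the 2 rRNAs and 13 mRNAs of the mitochondrial genome in each of the 6 libraries, in order of start position (grey, Ctrl; colors, BMP7). The points of both groups interleave, and BMP7 replicate 3 (orange) is highest for 12 of the 13 mRNAs.

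Complex I has 7 mitochondrial-encoded subunits, which form its proton-pumping membrane arm. *mt-Nd1* was at 6339, 7868 and 9360 CPM in Ctrl and 8640, 10954 and 7474 CPM with BMP7 (log2 fold change 0.20). *mt-Nd2*, *mt-Nd4*, *mt-Nd4l* and *mt-Nd5* had log2 fold changes of 0.23, 0.30, 0.29 and 0.25, with adjusted p between 0.212 and 0.315 (edgeR). *mt-Nd3* was the exception in library order, with 22.9, 23.9 and 26.0 CPM in Ctrl and 27.8, 23.6 and 26.1 CPM with BMP7, highest in BMP7 replicate 1. *mt-Nd6*, the one mRNA on the opposite strand, was at 1730, 2127 and 2689 CPM in Ctrl and 2767, 3570 and 2178 CPM with BMP7 (log2 fold change 0.38, SE 0.15, adjusted p = 0.115 with edgeR). Strand was not used in counting, so *mt-Nd6* and antisense RNA from the other strand cannot be told apart.

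For complex IV, *mt-Co2* was at 477, 577 and 741 CPM in Ctrl and 757, 1000 and 575 CPM with BMP7 (log2 fold change 0.38, adjusted p = 0.135 with edgeR), and *mt-Co3* at 401, 445 and 491 CPM and 541, 640 and 455 CPM (log2 fold change 0.29, SE 0.10, adjusted p = 0.0674 with edgeR). In both, BMP7 replicates 1 and 3 lay above all Ctrl libraries and BMP7 replicate 4 within their range. For complex V, *mt-Atp6* was at 806, 912 and 1200 CPM in Ctrl and 1170, 1690 and 984 CPM with BMP7 (log2 fold change 0.40, SE 0.16, adjusted p = 0.111 with edgeR). Its neighbor *mt-Atp8*, which overlaps it by 21.1% of its length, was at 60.4 to 101 CPM over all libraries (log2 fold change 0.16), and fragments on the shared bases were left out of both. Without Ctrl replicate 3, 6 mitochondrial members were called higher (*mt-Co2*, *mt-Co3*, *mt-Atp6*, *mt-Nd4*, *mt-Nd6* and *mt-Th*), where 5.57% of all genes were. Without BMP7 replicate 4, 5 were (*mt-Co2*, *mt-Co3*, *mt-Atp6*, *mt-Nd6* and *mt-Th*), where 6.7% of all genes were.

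The rRNAs, and the shares of *mt-Co1* and *mt-Cytb* among the mitochondrial counts, varied less. *mt-Rnr1*, the small subunit rRNA, was at 536, 608 and 652 CPM in Ctrl and 700.1, 720 and 595 CPM with BMP7 (log2 fold change 0.17, adjusted p = 0.216 with edgeR). *mt-Rnr2*, the large subunit rRNA, was at 448, 493 and 508 CPM in Ctrl and 442, 530 and 483 CPM with BMP7 (log2 fold change 0.0073, adjusted p = 0.966 with edgeR). *mt-Co1* took 36.8% ± 0.568 (SD, n = 3) of the mitochondrial counts in Ctrl and 36.0% ± 2.04 (SD, n = 3) with BMP7, and *mt-Cytb* 14.8% ± 0.388 and 15.0% ± 0.505. Smaller shares moved more, with *mt-Nd6* at 3.56% ± 0.0789 (SD, n = 3) in Ctrl and 3.93% ± 0.357 (SD, n = 3) with BMP7. That of *mt-Rnr2* ran from 0.906% in Ctrl replicate 1 to 0.608% in BMP7 replicate 3.

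One member was called, the histidine tRNA gene *mt-Th*. It lies at chrM:11546-11612 on the plus strand, between *mt-Nd4* and the serine tRNA gene *mt-Ts2*, and its sequence (GENCODE vM21, GRCm38), with the anticodon in capitals at positions 30 to 32, is shown because no other member passed both thresholds.
mt-Th: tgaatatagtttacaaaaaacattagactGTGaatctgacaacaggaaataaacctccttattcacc
It had 39, 59 and 60 counts in Ctrl (1.88, 2.90 and 2.93 CPM) and 85, 225 and 66 counts with BMP7 (5.92, 10 and 3.64 CPM). All BMP7 libraries were above all Ctrl libraries, and BMP7 replicate 3 stood highest. The log2 fold change was 1.36 (SE 0.30, adjusted p = 0.00502 with edgeR), and it was 1 of 22 mitochondrial members called higher against 5.99% of all genes tested. Without BMP7 replicate 3 the log2 fold change was 0.88 and the adjusted p 0.0522, and the call was lost. A fragment overlapping a neighboring gene was left out, so a fragment counted under *mt-Th* had to lie within a stretch of 68 bases.

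Among the other tRNAs tested, *mt-Ts2*, the next gene, was at 0.771, 0.787 and 0.685 CPM in Ctrl and 1.12, 1.64 and 1.10 CPM with BMP7, also without overlap (log2 fold change 0.80, SE 0.34, adjusted p = 0.142 with edgeR). The proline tRNA gene *mt-Tp*, on the minus strand at the end of the mitochondrial genes, had the most counts of any tRNA, at 40.5, 38.5 and 47.8 CPM in Ctrl and 46.7, 55.1 and 43.9 CPM with BMP7 (log2 fold change 0.20, adjusted p = 0.184 with edgeR). *mt-Tl1*, *mt-Tw*, *mt-Tn* and *mt-Tc* had log2 fold changes of 0.02, -0.06, -0.70 and -0.27, and their groups overlapped. Of the 15 tRNAs that were not tested, none had more than 10 counts in any library.

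Several members have near-identical annotated copies elsewhere in the genome, and fragments were counted under these as well. From which of the genes these fragments came was not tested. A copy was taken here as an annotated gene outside the set of members whose length was matched to at least 80% by a member's transcript at 95% identity or more. There were 43 such copies of 9 mitochondrial mRNAs and 16 nuclear subunits. A row of mitochondrial copies lies on chr1, from *Gm28439* at chr1:24650616-24651491 to *Gm29216* at chr1:24654787-24655278 in the coordinates of the deposited counts. For 5 mRNAs the copies held more counts than the gene over all libraries together, namely 70.7% for *mt-Nd3*, 57.5% for *mt-Atp6*, 56.6% for *mt-Nd4l*, 55.8% for *mt-Co2* and 55.4% for *mt-Co3*. The matched part was identical, base for base, to the copy on chr1 for *mt-Atp6*, *mt-Co2*, *mt-Co3*, *mt-Nd4* and *mt-Nd4l*. The copy *Gm10925* had 22058, 26246 and 35484 counts in Ctrl and 22698, 48520 and 24389 counts with BMP7, with BMP7 replicate 3 highest as for the mRNAs themselves.

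For 6 nuclear subunits the copies together had more counts than the gene. These were 4 genes of complex V, *Atp5g1* (94.8% of the summed counts under copies), *Atp5l* (93.5%), *Atp5h* (79.7%) and *Atp5md* (76.7%), and *Ndufb4* (69.0%) and *Uqcrb* (52.1%). *Atp5g1*, a c ring gene at chr11:95959678-95966496, had 526 counts over all libraries, and its copy *Gm10039* at chr11:100252542-100252952 had 9530. The matched stretch of 411 bases holds 1 difference, G437A counted from the first base of the *Atp5g1* transcript. The last 57 bases of the match are printed with the differing base in capitals (minus strand, GRCm38, chr11:96073104-96073160 for *Atp5g1* and chr11:100361716-100361772 for *Gm10039*), to show the 1 base by which the matched stretches differ.
Atp5g1: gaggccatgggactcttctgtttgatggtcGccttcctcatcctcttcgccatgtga
Gm10039: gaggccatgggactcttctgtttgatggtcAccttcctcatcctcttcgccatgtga
For *Atp5l*, *Atp5md* and *Ndufb4* the copy with the most counts was identical to the matched stretch.

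**Figure D5:**
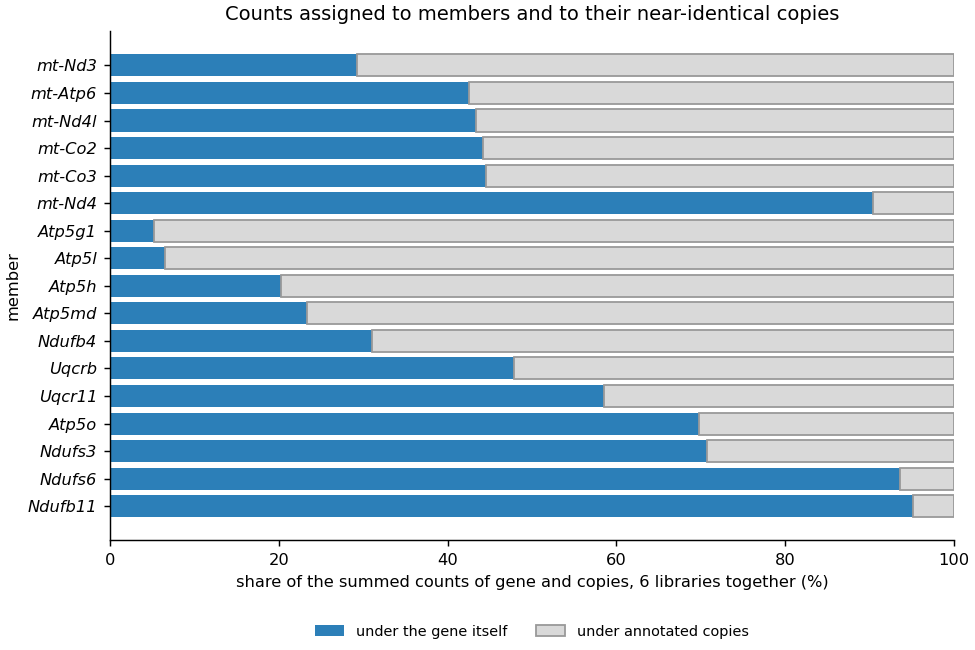
Share (%) of the summed counts of a member and its annotated near-identical copies that was assigned to the member itself (blue) and to the copies (grey), over the 6 libraries together, for members with at least 4% under copies. Atp5g1 and Atp5l keep under 7% of the summed counts, and 5 mitochondrial mRNAs keep less than their copies.

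With the counts of copies added to their source gene, no such gene was called. The summed *Atp5h* was at 511, 521 and 520 CPM in Ctrl and 604, 591 and 523 CPM with BMP7, all BMP7 libraries above Ctrl, with a log2 fold change of 0.15 (SE 0.065, adjusted p = 0.159 with edgeR) where the gene alone had -0.04. *Ndufb4* went from -0.02 alone to 0.20 with copies (edgeR adjusted p = 0.302), *Atp5md* from -0.08 to 0.07 (edgeR adjusted p = 0.669) and *mt-Nd3* from 0.08 to -0.0084 (edgeR adjusted p = 0.964). For the other mitochondrial mRNAs with copies the log2 fold change with copies was 0.14 to 0.37.

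The other genes of the pathway gave few calls, to be read against the 5.99% of all genes tested that were called higher and the 5.38% called lower. Among 5 tested subunits outside the naming rule (*Cox4i1*, *Cox7a2l*, *Ndufab1*, *Cyc1* and *Cycs*), edgeR called 0, with 0 at an unadjusted p under 0.05 and 0 with DESeq2. *Cox4i1*, the main isoform of a complex IV subunit, was at 440, 405 and 374 CPM in Ctrl and 434, 368 and 408 CPM with BMP7. Among 17 assembly factors of complex I 0 were called by edgeR and by DESeq2. At an unadjusted p under 0.05 (edgeR), 3 of 17 were lower, against 13.1% of all genes tested that were lower. Of 35 assembly factors of complexes II to V, 1 rose (below the 5.99% of all genes), *Cox19*, a copper handling factor of complex IV, from 25.8, 24.6 and 25.9 CPM in Ctrl to 31.4, 33.2 and 32.1 CPM with BMP7 (log2 fold change 0.34, adjusted p = 0.00579 with edgeR). The groups did not overlap, and without BMP7 replicates 3 and 4 its adjusted p was 0.108. Of 76 mitochondrial ribosomal proteins, 0 rose and 1 fell (*Mrpl9*, log2 fold change -0.32, adjusted p = 0.0308 with edgeR), and the call of *Mrpl9* was lost without Ctrl replicate 1 or 2 or BMP7 replicate 3 (adjusted p 0.17, 0.0567 and 0.167).

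Regulators of mitochondrial biogenesis included the largest change in these lists. *Ppargc1b*, a coactivator of nuclear respiratory genes, fell from 5.63, 8.21 and 6.85 CPM in Ctrl to 2.09, 2.67 and 2.53 CPM with BMP7, without overlap and with a log2 fold change of -1.49 (SE 0.19, adjusted p = 4.5e-05 with edgeR). Its relative *Ppargc1a* was at 148, 143 and 156 CPM in Ctrl and 112, 131 and 127 CPM with BMP7 (log2 fold change -0.27, adjusted p = 0.0136 with edgeR), a call that was lost without Ctrl replicate 3 (adjusted p = 0.0734). With length offsets, RLE scaling, DESeq2 or without BMP7 replicate 1 (log2 fold change -0.21 to -0.26) it was under the fold limit. *Gabpb1*, a subunit of the ETS factor GABP, rose from 33.4, 33.6 and 34.8 CPM to 42.7, 43.8 and 39.9 CPM (log2 fold change 0.31, adjusted p = 0.00699 with edgeR). The DNA-binding partner *Gabpa* and the factor *Nrf1* had log2 fold changes of 0.0074 and 0.05. In all, 1 of 15 regulators tested rose, near the 5.99% of all genes, and 2 fell (5.38% of all genes).

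Of 31 genes for mitochondrial DNA maintenance and transcription, 0 rose and 2 fell, near the 5.38% of all genes that were lower. These were *Lrpprc*, which stabilizes mitochondrial mRNAs, at 98.7, 102 and 96.1 CPM in Ctrl and 85.6, 75.4 and 85.2 CPM with BMP7 (log2 fold change -0.27, adjusted p = 0.011 with edgeR), and *Fastkd1* (log2 fold change -0.33, adjusted p = 0.0191 with edgeR). The call of *Lrpprc* was lost without Ctrl replicate 2 or BMP7 replicate 3 (adjusted p 0.0695 and 0.0684) and, with length offsets, fell under the fold limit (log2 fold change -0.25). That of *Fastkd1* was lost without Ctrl replicate 1 or 3 or BMP7 replicate 3 (adjusted p between 0.0504 and 0.0986). *Tfam*, which packages mitochondrial DNA and takes part in its transcription, was at 35.6, 32.5 and 31.9 CPM in Ctrl and 28.8, 30.9 and 32.1 CPM with BMP7 (log2 fold change -0.12, adjusted p = 0.364 with edgeR), with overlapping groups. The mitochondrial RNA polymerase gene *Polrmt* was at -0.09. The list's median log2 fold change was -0.097 beside -0.0062 for all genes tested, and 25 of 31 had a negative value. At an unadjusted p under 0.05 (edgeR), 0 of 31 were higher and 8 of 31 were lower, against 13.1% of all genes tested that were lower. In 13 of 31 every BMP7 library was below every Ctrl library, against 15.1% of all genes tested.

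Among 24 genes of the TCA cycle and pyruvate dehydrogenase, *Pdk3*, a kinase that inhibits pyruvate dehydrogenase, rose from 45.8, 46.6 and 47.9 CPM in Ctrl to 62.0, 62.8 and 64.5 CPM with BMP7 (log2 fold change 0.43, SE 0.064, adjusted p = 0.00016 with edgeR). *Pdp1*, a phosphatase that activates the enzyme, was at 10.4, 11.7 and 12.3 CPM in Ctrl and 8.43, 8.58 and 9.47 CPM with BMP7 (log2 fold change -0.38, adjusted p = 0.0481 with edgeR), and DESeq2 did not call it (adjusted p = 0.0847). The call of *Pdp1* was also lost with RLE scaling, length offsets, a higher count minimum and without Ctrl replicate 2 or 3 or any BMP7 library (adjusted p between 0.0501 and 0.171). Citrate synthase (*Cs*) was at 249, 264 and 258 CPM in Ctrl and 243, 231 and 267 CPM with BMP7. Of 9 carriers and uncoupling proteins edgeR and DESeq2 called 0, and 1 had an unadjusted p under 0.05. This was *Ucp2*, an uncoupling protein family member, at 320, 319 and 323 CPM in Ctrl and 386, 397 and 335 CPM with BMP7 (log2 fold change 0.22, adjusted p = 0.0423 with edgeR), under the fold limit.

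Promoters of nuclear subunits were searched for short motifs of the factors known to act on respiratory genes, as a description. RefSeq windows (GRCm38.p6) from 250 bases before to 50 bases after the start were found for 68 of 81 nuclear subunits, 73 windows in all. The NRF1 core GCATGCGC was present on either strand in 13.7% of these windows and in 5.0% of windows of genes tested, the ETS motif CCGGAAG in 23.3% and 17.1%, and the YY1 motif AAGATGGC in 13.7% and 4.3%. The ERR motif TCAAGGTCA was in 2.7% and 0.3%, and the GC-rich element bound by BMP SMADs, GGCGCC, in 19.2% and 20.5%. Median GC content was 57.7% in the subunit windows and 60.7% in those of genes tested. Over all RefSeq windows the shares were 2.7% for NRF1, 8.9% for ETS, 2.7% for YY1, 0.4% for ERR and 11.9% for the SMAD element.

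The windows of *Uqcr11* (complex III, minus strand, chr10:80406772-80407071) and *Atp5j* (peripheral stalk, minus strand, chr16:84834927-84835226) are printed because they were among the windows with the most of the 5 motifs, 3 in *Uqcr11* (ETS, SMAD and NRF1, in this order) and 2 in *Atp5j* (YY1, then ETS), which are in capitals.
Uqcr11: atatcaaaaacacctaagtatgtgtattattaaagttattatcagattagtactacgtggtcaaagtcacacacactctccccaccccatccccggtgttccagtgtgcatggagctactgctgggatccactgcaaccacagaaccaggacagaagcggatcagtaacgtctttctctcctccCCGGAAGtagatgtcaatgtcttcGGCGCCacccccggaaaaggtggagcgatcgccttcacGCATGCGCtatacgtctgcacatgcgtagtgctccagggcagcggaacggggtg
Atp5j: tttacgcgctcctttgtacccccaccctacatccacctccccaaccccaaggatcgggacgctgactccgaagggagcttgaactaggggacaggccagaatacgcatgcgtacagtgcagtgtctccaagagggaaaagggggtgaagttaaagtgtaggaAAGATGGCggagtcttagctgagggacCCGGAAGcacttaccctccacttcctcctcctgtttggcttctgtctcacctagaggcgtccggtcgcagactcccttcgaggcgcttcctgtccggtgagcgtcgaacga
*Uqcr11* was at 33.9, 39.8 and 37.5 CPM in Ctrl and 44.6, 38.5 and 34.7 CPM with BMP7, and *Atp5j* at 128, 129 and 121 CPM in Ctrl and 133, 124 and 123 CPM with BMP7, with overlapping groups in both (log2 fold changes 0.08 and 0.0019).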

How the data were processed

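The authors aligned read pairs to the mouse genome with subjunc, counted fragments per gene with featureCounts of the Subread package (2.0.3 per the labels, 2.0.1 per the file headers) and deposited these counts without normalization, with each gene's summed exon length. The methods name mm10 for alignment, the deposited header an mm39 annotation, and coordinates of genes are given as deposited. By the header strand was not used, and fragments reported on several places or genes were left out. *mt-Atp6* and its copy *Gm10925*, identical over the matched stretch, still had 132493 and 179395 counts over all libraries. Counts under a gene and under such copies are therefore not known to be uniquely placed.

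Counts were analysed in R 4.3.3 with edgeR 4.0.16 (filter by expression, TMM, quasi-likelihood test of BMP7 against Ctrl over all 6 libraries, Benjamini-Hochberg). SE is the log2 fold change over the square root of F. The fit had 4 residual degrees of freedom and a common biological coefficient of variation of 0.0696. DESeq2 1.42.0, RLE and upper-quartile scaling, scaling without mitochondrial genes, other filters and fold limits, length offsets (loess, span 0.5) and leaving out libraries were alternatives. The fits were tested on simulated counts with the same biological coefficient of variation for every gene. These lack the differences between BMP7 libraries described above. Copies were searched with BLAST 2.17.0 among GENCODE vM21 transcripts (GRCm38, not the deposited annotation) over at least 100 bases, and 3 subunits absent there by symbol were matched through RefSeq synonyms.

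Named with values are members past the thresholds, all mitochondrial mRNAs and rRNAs, the highest and lowest subunit per kilobase in each complex, the tissue-restricted isoforms with their partners, and called genes of the other lists. Other members, and the genes with most counts under copies, were named after their values were seen. Members and lists were chosen with earlier results of these data known.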

Additional observations from a re-analysis of the deposited data

Results flagged for a closer look

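The alanine tRNA gene *mt-Ta* did not pass the expression filter, yet every BMP7 library was above every Ctrl library, with 4, 8 and 4 counts in BMP7 replicates 1, 3 and 4 and 2 counts in each Ctrl library. Its mean with BMP7 was 0.285 CPM. The difference was not tested, and the Ctrl libraries lie under the floor of 3 counts.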

How the results depend on the processing

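The counts of nuclear members called higher and lower (0 and 0) and of mitochondrial members called higher and lower (1 and 0) held under RLE and upper-quartile scaling, scaling without mitochondrial genes, DESeq2, at least 10 counts in every library, length offsets, a 1.5-fold limit and the adding of copies, the last an alternative chosen after seeing the data. With adjusted p alone, 1 nuclear member was higher, and with no filter on low counts 7 mitochondrial members were higher (3.49% of all genes). Leaving out 1 library gave 0 to 1 nuclear members higher (1 without BMP7 replicate 4, *Uqcrb*), 0 to 3 lower (3 without BMP7 replicate 1), and 0 to 6 mitochondrial members higher (0 without BMP7 replicate 3, 6 without Ctrl replicate 3, 5 without BMP7 replicate 4). A fit with BMP7 replicate 1 as the only BMP7 library was an alternative added once the data had been seen. Its spread was assumed to be like that of Ctrl. The median log2 fold change over all nuclear members tested was then 0.126. Over all alternatives that median lay between -0.052 and 0.13, and that of mitochondrial members between 0.072 and 0.36. The log2 fold change of *mt-Th* was 0.88 to 1.65, with adjusted p from 5.56e-11 without a filter to 0.0522. The cause of these differences was not tested.

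No paired analysis was possible because the BMP7 columns are numbered 1, 3 and 4 and cannot be tied to the numbered labels. Depth limits the tRNAs and isoforms at a few counts. Counts under near-identical copies, and deposited lengths that exceed the transcript, limit levels per kilobase.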
